A study of Caenorhabditis elegans with 2 samples.

Results

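The vacuolar ATPase genes described here are 8 of the 21 annotated genes of this proton pump that were listed, among 19973 protein-coding genes of Caenorhabditis elegans. They are vha-1, vha-2, vha-3, vha-8, vha-11, vha-12, vha-13 and vha-15 and are described through the regions that ChIP-seq of HPL-2 placed near them. HPL-2 is a worm homologue of heterochromatin protein HP1, and ChIP-seq recovers the DNA that a precipitated chromatin protein lies on. A region belongs to a gene when its summit, the position of highest enrichment in the region, lies within 1000 bp of an annotated 5′ end of the gene or in the gene body. The 8 genes were chosen with the enrichment values of these regions in view, so their ranks are a description and carry no test.

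The data came from whole first-stage (L1) larvae of both sexes, pooled and starved after bleaching. The strain, YL474, is mutant for lin-35 (n745), which encodes a retinoblastoma homologue, and for unc-119 (ed3), and holds the array vrIs64. The array expresses HPL-2 tagged with GFP and FLAG from the promoter of ges-1, an intestinal gene, with the hpl-2 3′ UTR and an unc-119(+) marker. Both libraries, biological replicates 1 and 3 of 1 group, carry every one of these alleles, and neither a wild-type lin-35 strain nor a control library was analysed here. The labels describe the target as the tagged protein and the antibody as hpl-2, and whether chromatin of intestinal cells or of all cells was precipitated therefore cannot be told apart. The lists hold no expression values, so the labelled stage could not be checked against marker genes. Each library has a list of 30000 candidate regions, both libraries pooled have another of the same length, and 857 pooled regions passed the authors' threshold on the irreproducible discovery rate. The authors' signal is an enrichment value with its own scale in each list, so ranks by signal (1 is the strongest) were used between lists. The 857 thresholded regions are exactly the 857 strongest of the pooled list and reach down to a signal of 37.9.

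The vacuolar ATPase pumps protons into lysosomes and other organelles, and across the apical membrane of some epithelial cells. Its peripheral V1 sector hydrolyses ATP, and its membrane V0 sector carries the protons through a ring of c subunits. In the worm the pump acidifies the lysosome-related organelles of the intestine and also works in the excretory cell and the hypodermis. Of the 8 genes, 5 encode V1 subunits: vha-13 the catalytic subunit A, vha-12 subunit B, vha-11 subunit C, vha-8 subunit E and vha-15 subunit H. The other 3, vha-1, vha-2 and vha-3, encode c subunits of the V0 ring. The genes vha-1 and vha-2 have been described as an operon, as have vha-3 and vha-11.

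The sequence under the summits is shown for the genes whose strongest region lies between genes and upstream of the annotated 5′ end, so that the bases under an upstream summit can be read. Each run is 201 bases of WBcel235 (ce11) from the RefSeq copy, on the strand of the gene and centred on the pooled summit. Capitals mark matches to the motifs that were searched. The windows are chrIII:9780743-9780943 for vha-1, chrIV:6790543-6790743 for vha-8, chrX:4190658-4190858 for vha-12 and chrX:2237582-2237782 for vha-15, all on the plus strand. That of vha-3, chrIV:2315003-2315203 on the minus strand, lies between vha-3 and vha-11 and is shown for contrast. The window of vha-13 touches a 3′ UTR of the gene cept-2, and those of vha-2 and vha-11 touch annotated UTRs, so they are not printed.
vha-1: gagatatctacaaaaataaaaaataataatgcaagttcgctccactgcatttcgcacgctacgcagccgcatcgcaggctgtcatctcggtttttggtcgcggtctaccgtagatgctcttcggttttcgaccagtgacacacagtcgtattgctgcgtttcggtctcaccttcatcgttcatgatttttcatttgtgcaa
vha-8: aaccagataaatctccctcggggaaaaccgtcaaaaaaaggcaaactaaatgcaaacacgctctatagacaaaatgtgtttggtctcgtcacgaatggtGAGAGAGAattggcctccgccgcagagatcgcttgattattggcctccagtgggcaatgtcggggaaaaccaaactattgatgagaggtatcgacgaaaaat
vha-12: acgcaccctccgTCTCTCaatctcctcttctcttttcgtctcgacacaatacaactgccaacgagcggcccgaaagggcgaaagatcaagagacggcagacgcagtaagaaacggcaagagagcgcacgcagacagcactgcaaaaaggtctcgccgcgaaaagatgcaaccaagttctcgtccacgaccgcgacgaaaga
vha-15: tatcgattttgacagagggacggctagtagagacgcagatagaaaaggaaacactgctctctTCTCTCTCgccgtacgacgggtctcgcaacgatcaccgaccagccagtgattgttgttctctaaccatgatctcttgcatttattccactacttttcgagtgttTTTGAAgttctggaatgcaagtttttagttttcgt
vha-3: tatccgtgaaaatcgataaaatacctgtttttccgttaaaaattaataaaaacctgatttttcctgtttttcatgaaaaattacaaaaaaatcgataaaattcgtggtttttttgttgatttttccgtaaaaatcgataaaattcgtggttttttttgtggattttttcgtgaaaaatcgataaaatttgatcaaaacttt

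All 8 genes had at least 1 pooled candidate region, as did 61.8% of all protein-coding genes. Each also had a candidate in replicate 1 (63.1% of all protein-coding genes) and in replicate 3 (62.6%). A thresholded region was assigned to 4 of the 8, vha-1, vha-8, vha-13 and vha-15, against 4.68% of all protein-coding genes, a share read only as background because the values chose the genes. The window in which a summit counted had a median length of 2716.5 bp for the 8 genes and 3045 bp for all protein-coding genes. Over the 8 genes the strongest pooled region had a median rank of 715, with a range of 305 to 5448. The −log10 of the authors' q-value was 3.23 at the strongest regions of vha-1, vha-8, vha-13 and vha-15. That is the highest value in the pooled list, so it does not separate these 4. It was 2.78 at the strongest regions of vha-2 and vha-12, 2.21 at vha-11 and 0.990 at vha-3. At the edge of the distance limit, a vha-15 candidate of signal 10.1 lay 959 bp upstream and was counted, and one of signal 7.95 that lay 1144 bp upstream of vha-8 was not. Over the 12338 protein-coding genes with a candidate the median was 9497.

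**Figure D1:**
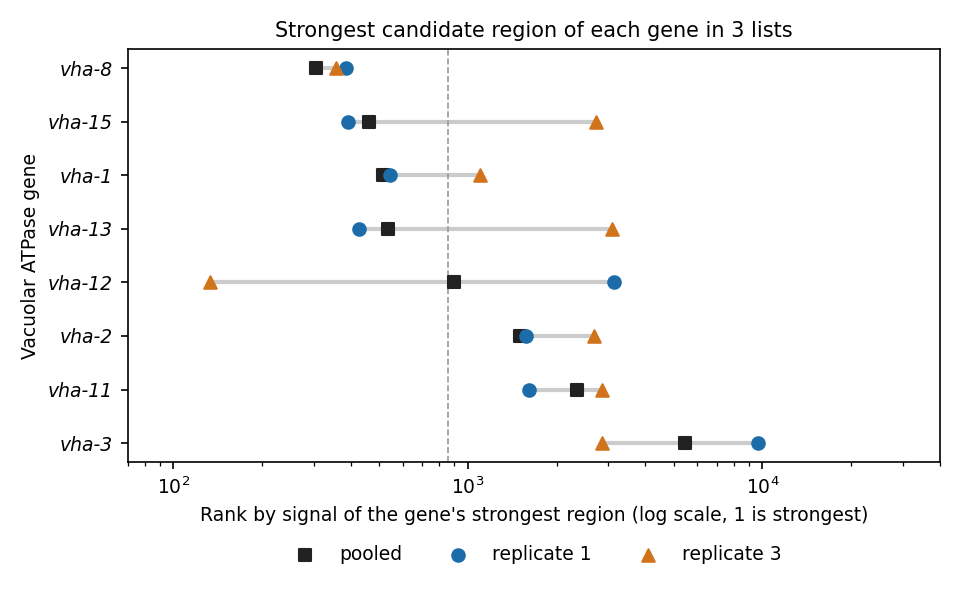
Rank by signal of the strongest region of each of the 8 genes in the pooled list (squares), in replicate 1 (circles) and in replicate 3 (triangles), on a log axis where 1 is the strongest; the dashed line marks rank 857. The 3 points of vha-8 lie between 305 and 386, whereas those of vha-12 run from 133 in replicate 3 to 3132 in replicate 1.

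The V1 gene vha-8, for subunit E of the stalk that joins the pump's sectors, had the strongest region of the family. On chromosome IV from 6790455 to 6790830, it had a pooled signal of 57.9 and rank 305. The summit at 6790643 lay between genes, 431 bp upstream of vha-8 and 155 bp upstream of C17H12.2, which starts on the opposite strand and encodes a Mab-21 domain protein. The signal was 42.3 in replicate 1 (rank 386) and 14.9 in replicate 3 (rank 357), with summits 18 bp and 22 bp from the pooled one. Both libraries thus placed this region among their 857 strongest. No other gene of the 8 had a region among the 857 strongest of each library. Of all protein-coding genes 2.32% did, counted whether or not the regions of the 2 libraries lay at the same place. Because C17H12.2 is nearer, the region is assigned to that gene when each summit is given only to the nearest 5′ end. The noncoding RNA genes C17H12.33 and C17H12.30 also have a 5′ end within 1000 bp of this summit. Another candidate, in a 3′ UTR exon of vha-8, had a pooled signal of 9.43 and rank 22077, but rank 3250 in replicate 3.

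The catalytic subunit gene vha-13 had its strongest region on chromosome V from 14350957 to 14351332, with a pooled signal of 46.7 and rank 534. The summit at 14351145 was 564 bp upstream of vha-13, in a 3′ UTR exon of cept-2, an upstream gene on the same strand that encodes a diacylglycerol cholinephosphotransferase. In replicate 1 the signal was 40.9 (rank 427) and in replicate 3 it was 7.19 (rank 3083). The libraries' summits lay 44 bp and 47 bp away from the pooled one, so they marked the same place but ranked it differently. Inside the coding sequence of vha-13, the pooled candidates were weak, with ranks 11137 and 27547.

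The gene vha-15, for the regulatory subunit H, is on the X chromosome. Its region from 2237494 to 2237869 had a pooled signal of 49.9 and rank 463, with a summit 229 bp upstream of the 5′ end. The signal was 42.1 in replicate 1 (rank 392) and 7.49 in replicate 3 (rank 2730), and the summits were 14 bp and 0 bp from the pooled one. A shoulder at position 2237903, 8 bp upstream of the 5′ end, had a pooled signal of 26.5 and rank 2004. It was present in replicate 1 at rank 2823 and in replicate 3 at rank 7183, so in both libraries the upstream summit was the stronger of the pair.

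The other X-linked gene of the 8, vha-12 for the ATP-binding subunit B, showed the opposite balance of libraries. Its region from 4190570 to 4190945 had a pooled signal of 37.0 and rank 896 just outside the thresholded list, with a summit 336 bp upstream of vha-12. In replicate 3 the signal was 20.1, rank 133, which is the highest library rank of any gene among the 8. In replicate 1 it was 17.9, rank 3132, with a summit 89 bp nearer to the gene. Replicate 3 ranked it above the regions of vha-8, vha-1, vha-13 and vha-15, all of which passed the threshold. No other annotated gene had a 5′ end within 1000 bp of this summit.

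**Figure D2:**
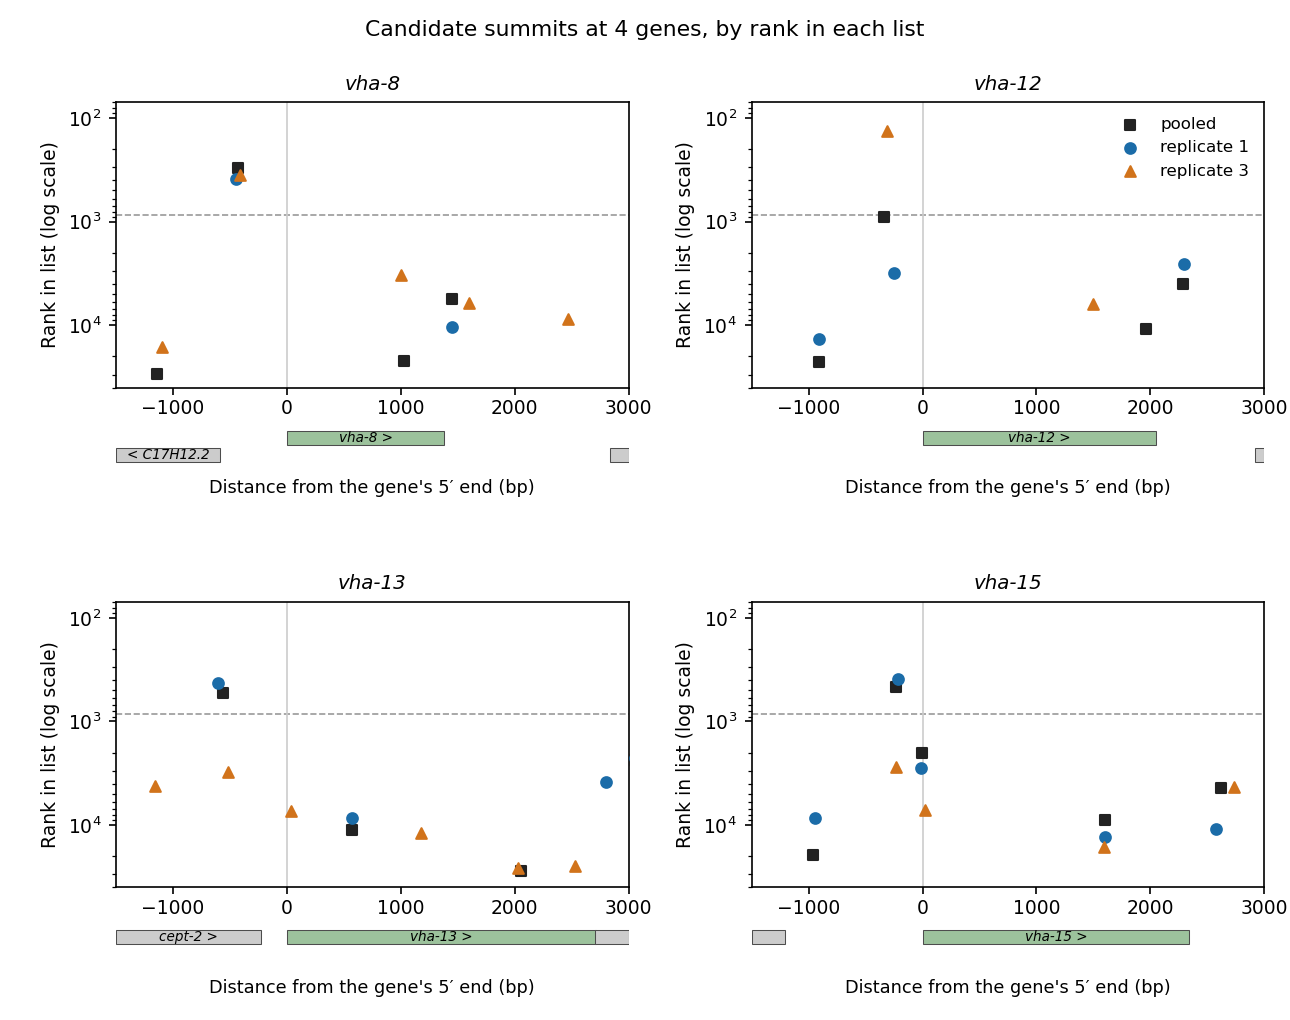
Candidate summits around vha-8, vha-12, vha-13 and vha-15, by distance from the 5′ end of the gene in bp (x axis, upstream is negative) and by rank in the pooled list (squares), replicate 1 (circles) and replicate 3 (triangles) on a log axis with the strongest at the top; the dashed line is rank 857. Bars below each panel show genes, green for those of the pump, and the arrowheads beside the names show their direction. In each panel the strongest pooled summit lies upstream of the gene, between 229 and 564 bp from its 5′ end.

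The fifth V1 gene, vha-11 for subunit C, is 6753 bp long and had 7 pooled candidates, 6 of them in its body. None passed the threshold. The strongest, on chromosome IV from 2312522 to 2312897, had a pooled signal of 24.7 and rank 2350, and its summit lay 1857 bp downstream of the 5′ end in an exon that is coding or UTR depending on the transcript. Replicate 1 had it at rank 1607 with a summit 7 bp away. Replicate 3 had no summit within 200 bp of it, and its best candidate for vha-11 was instead the one upstream of the gene, at rank 2854. With the gene body left out, the best pooled rank of vha-11 was 5448.

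Among the c subunit genes, vha-1 had a thresholded region and vha-2 and vha-3 had none. The vha-1 region, on chromosome III from 9780655 to 9781030, had a pooled signal of 47.2 and rank 514. Its summit lay 411 bp upstream of vha-1 and 489 bp upstream of sqv-3, a galactosyltransferase gene that starts in the opposite direction. In replicate 1 the signal was 37.0 (rank 542) at the same base. Replicate 3 had a pair of weaker summits instead, at 502 bp (signal 10.3, rank 1100) and 280 bp (signal 7.05, rank 3254) upstream of vha-1. The 2 replicate 3 summits flank the pooled one.

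The gap of 400 bp between vha-1 and vha-2 held another region, with a summit 169 bp upstream of vha-2. It had a pooled signal of 28.9 and rank 1600, and rank 1569 in replicate 1 but 11790 in replicate 3. A weaker region, in a coding exon of vha-2, had rank 14472. These 2 regions fall within the limit for both genes, so the counts of vha-1 and vha-2 are not independent. The strongest pooled region assigned to vha-2 was at its other end, where the 3′ UTR of vha-2 overlaps the 5′ UTR of R10E11.6, the next gene on the same strand. It had a pooled signal of 29.6 and rank 1507, and its summit was 133 bp upstream of the nearest 5′ end of R10E11.6. Replicate 1 had 2 summits within 200 bp, one 21 bp away at rank 3680 and one 200 bp away at rank 4709. Replicate 3 also had 2, one 122 bp away at rank 2689 and one 88 bp away at rank 24837. That the 5′ end of vha-2 lies 1321 bp from the vha-1 summit leaves the strongest region of this locus just outside the limit for vha-2.

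Among the 8, vha-3 had the weakest best region in the pooled list. Its best region, on chromosome IV from 2314915 to 2315290, had a pooled signal of 17.4 and rank 5448, and lay in the 892 bp between vha-3 and vha-11. The signal was 11.6 in replicate 1 (rank 9648) and 7.38 in replicate 3 (rank 2854). The region is shared with vha-11, whose 5′ end is 536 bp away and nearer than that of vha-3. Upstream of vha-3, where the pair begins, the pooled candidate had a signal of 10.4 and rank 18069. Replicate 3 had a better-ranked summit there, 389 bp upstream of vha-3, with signal 6.87 and rank 3504. The 5′ end nearest to that summit was that of Y38F2AL.12, on the opposite strand. Replicate 1 had no candidate within the limit upstream of vha-3.

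**Figure D3:**
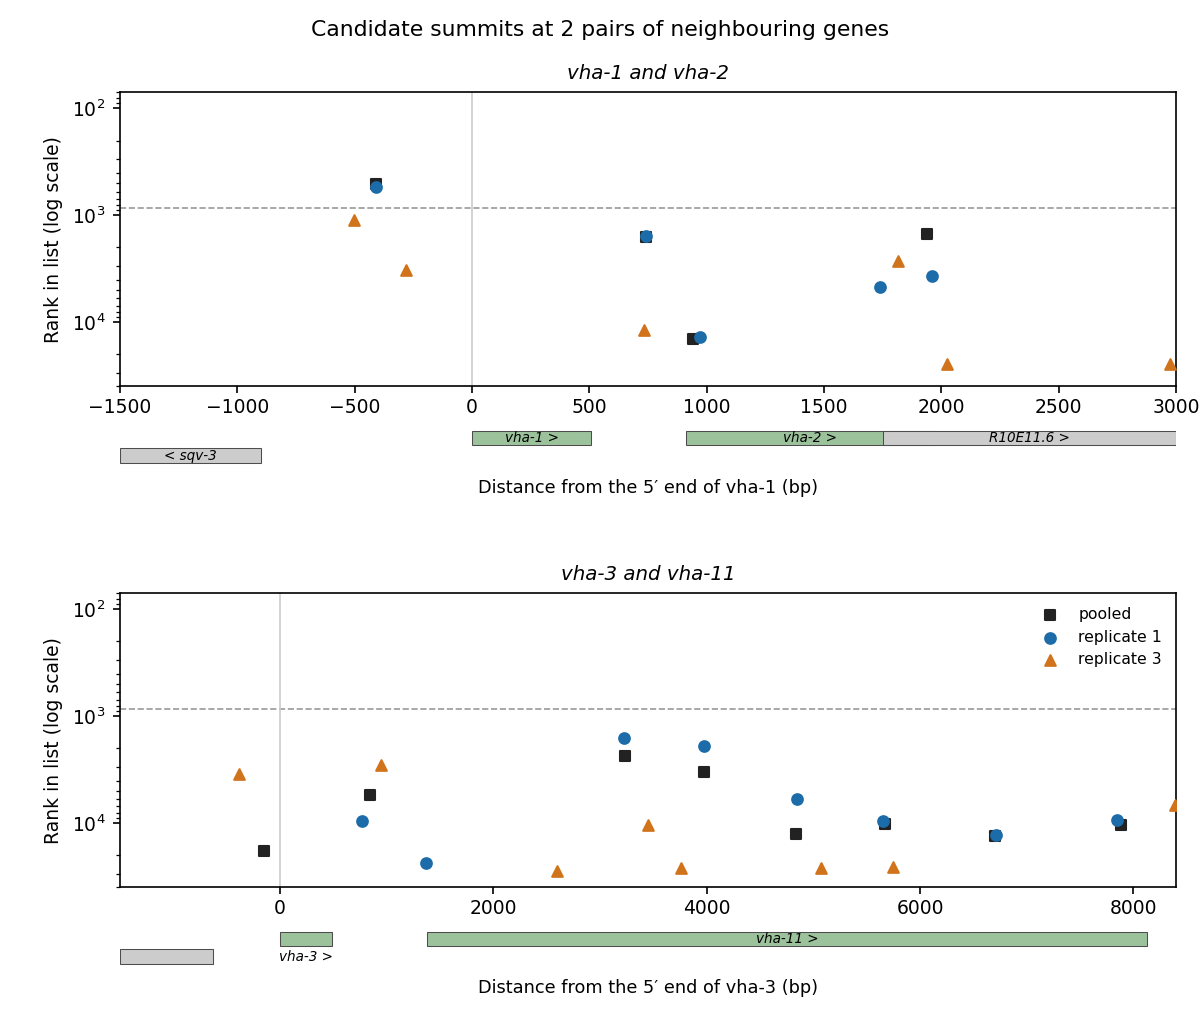
Candidate summits at vha-1 and vha-2 (upper panel) and at vha-3 and vha-11 (lower panel), by distance in bp from the 5′ end of the first gene of each pair and by rank in the pooled list (squares), replicate 1 (circles) and replicate 3 (triangles) on a log axis with the strongest at the top; the dashed line is rank 857. The vha-1 upstream region at pooled rank 514 is above the line, and the pooled candidates of vha-3 and vha-11 are all below it, at ranks 2350 to 18069.

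Library by library, 4 of the 8 genes had a region among the 857 strongest of replicate 1 (vha-1, vha-8, vha-13 and vha-15), where 4.57% of all protein-coding genes did. In replicate 3 there were 2 of the 8 (vha-8 and vha-12), where 4.30% of all protein-coding genes did. The median rank of the 8 genes' strongest regions was 1055.5 in replicate 1 and 2709.5 in replicate 3. The corresponding medians over all protein-coding genes with a candidate were 9889 and 9628. Of the 857 thresholded regions themselves, 85.8% had a summit within 200 bp that ranked among the 857 strongest of replicate 1, and 55.5% had one in replicate 3. For the strongest pooled region of each of the 8 genes, replicate 1 had a summit within 200 bp at all 8 and replicate 3 at 7, the exception being vha-11. By each gene's best rank anywhere in its window, replicate 3 was better than replicate 1 for 3 genes, vha-3, vha-8 and vha-12. Within 200 bp of the strongest pooled region of vha-2, replicate 3 also had the better best rank, 2689 against 3680. Its nearest summit there, however, had rank 24837. With 2 libraries and no control library analysed here, the difference between the 2 was described and not tested. The sequencing depth behind each rank is unknown.

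At 5 of the 8 genes (vha-1, vha-8, vha-12, vha-13 and vha-15) the strongest pooled summit was upstream, from 229 to 564 bp away, and at the other 3 it was downstream of the gene's own 5′ end. Of the 8, only vha-1, vha-8, vha-13 and vha-15 had a thresholded region, and their strongest summits were all upstream. The gene vha-12 and the 3 with a downstream summit are thus not among the genes given next. Over all 935 genes with a thresholded region, 81.4% had their strongest summit upstream. The strongest summits of these 935 genes had a median position 215 bp upstream, with quartiles at 370.5 and 71.5 bp upstream. Of those genes, 15.2% had a summit at least as far upstream as that of vha-13, 20.4% as that of vha-8, 21.6% as that of vha-1, 28.8% as that of vha-12 and 47.7% as that of vha-15. The regions of vha-1 and vha-8 each lie between 5′ ends on opposite strands, as did 22.6% of all thresholded regions and 3.68% of all pooled candidates.

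GC content within 100 bp of the strongest summit was 45.8% at vha-1, 45.3% at vha-8, 54.7% at vha-12, 54.2% at vha-13 and 44.3% at vha-15. These 5 were all above the median of the thresholded regions, 42.8%, and that of all pooled candidates, 34.8%. The strongest regions of vha-2 (32.8%), vha-3 (24.4%) and vha-11 (41.8%) were below the thresholded median. Masked repeats covered 0% of the vha-13 window, 4.98% at vha-8, 9.95% at vha-12, 14.4% at vha-11 and 18.9% at vha-15. They covered 25.4% at both vha-1 and vha-2, and 100% at vha-3. The median over the thresholded regions was 22.9%.

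Of the motifs searched on both strands within 100 bp of the summit, the GAGA hexamer (GAGAGA, or TCTCTC on the other strand) was the most frequent at the strongest regions. It occurred at 4 of 8, those of vha-8, vha-12, vha-13 and vha-15, against 37.9% of all thresholded regions and 14.3% of all pooled candidates. At vha-8 a pair of overlapping matches covered the summit itself, the capitals in the middle of its sequence, while at vha-12 the match lay 86 bp upstream of the summit. The CHR-like hexamer (TTTGAA) was at 3 of 8 (vha-2, vha-11 and vha-15), against 34.3% of thresholded regions and 50.3% of all candidates. The extended GATA site (TGATAA) was at 1 of 8, that of vha-11, against 16.2% and 21.3%. The E-box (CACGTG), the core of the site bound by TFEB in mammals and by its worm homologue HLH-30, was at 0 of 8, against 8.63% of thresholded regions and 4.27% of all candidates. It was also at 0 of all 24 pooled regions of the 8 genes, where the CHR-like hexamer, at 10, was more frequent than the GAGA hexamer, at 7. The E2F-like heptamer (GCGGGAA) was likewise at 0 of 8, against 4.67% and 2.46%. A match or its absence describes only these letters in these windows.

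The other 13 genes of the pump are given for their values alone, since the 8 were chosen over them by these same lists. Thresholded regions were assigned to 2 of the 13, vha-9 for subunit F and vha-17 for subunit e. The vha-9 region, 216 bp upstream of its 5′ end on chromosome II, had a pooled signal of 38.6 and rank 830, with rank 1028 in replicate 1 and 444 in replicate 3. The vha-17 summit lay 823 bp downstream of the 5′ end and past the gene's end, in the body of nspg-11, with a pooled signal of 39.4 and rank 793. Replicate 1 ranked that place 545 and replicate 3 ranked it 13024. In the pooled list the subunit G gene vha-10 followed at rank 1353, and no other of the 13 was better than rank 5888. Single libraries differed: in replicate 3 vha-14 had rank 1312 and vha-19 rank 3381, both at other places than their pooled summits. There, vha-18 and vha-20 had no candidate. Over the 12 of the 13 genes with a pooled candidate, the median pooled rank was 8169.5.

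By sector, 4 of the 9 V1 genes (vha-8, vha-9, vha-13 and vha-15) and 2 of the 10 V0 genes (vha-1 and vha-17) had a thresholded region, and 0 of the 2 accessory genes did, against 4.68% of all protein-coding genes. Since 5 of the 9 V1 genes and 3 of the 10 V0 genes are among the 8 chosen with these values in view, the counts do not compare the sectors. The V0 genes for the a subunit, which anchors the proton path and differs between tissues, had no thresholded region: in the pooled list vha-6, the intestinal one, had rank 7834, vha-5 rank 7987 and vha-7 rank 16273. In replicate 3 vha-5 had another candidate, at rank 1088 with a signal of 10.3. The fourth a subunit gene, unc-32, known for its neuronal function, had no pooled candidate, although its best rank was 22038 in replicate 1 and 11817 in replicate 3. Where a pair of genes encodes the same subunit, H, the one described above, vha-15, had rank 463 and its paralogue vha-18 had rank 16466.

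**Figure D4:**
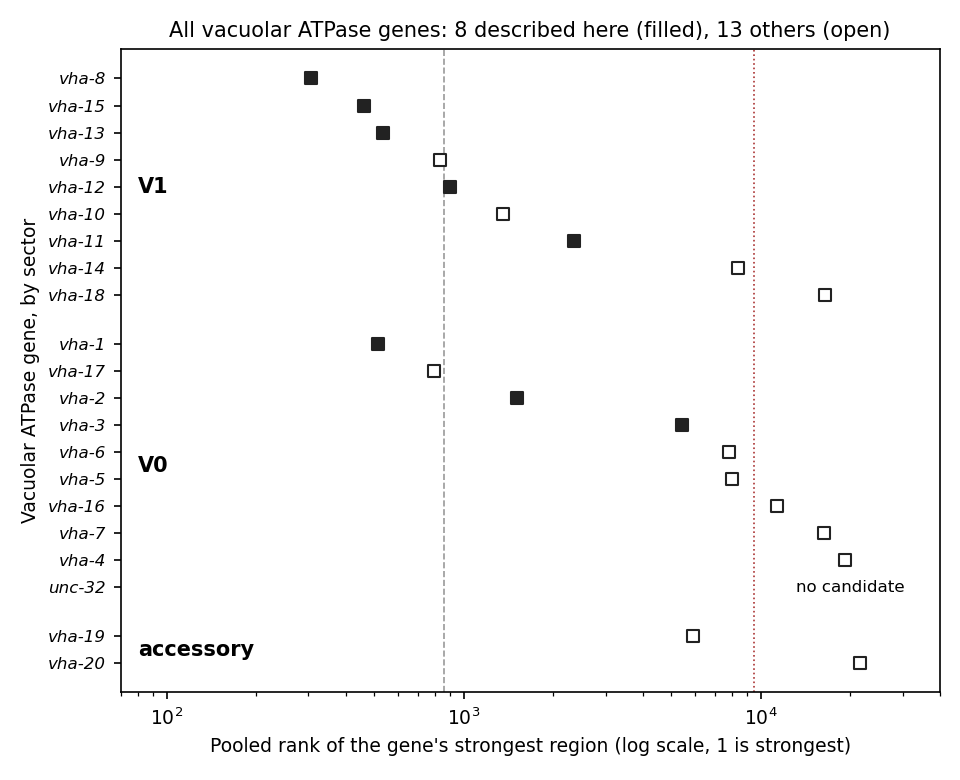
Pooled rank of the strongest region of the 21 vacuolar ATPase genes, grouped by sector, on a log axis where 1 is the strongest; filled squares are the 8 genes described here and open squares 12 of the other 13, unc-32 having no pooled candidate. The dashed line is rank 857 and the dotted line is 9497, the median over all protein-coding genes with a candidate; 6 squares lie left of the dashed line.

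In a list of 12 lysosomal genes and regulators of the pump, 2 had a thresholded region, against 4.68% of all protein-coding genes. These were hlh-30, the worm TFEB gene, at pooled rank 789, and nuc-1, a lysosomal nuclease gene, at pooled rank 766. The hlh-30 gene is 20159 bp long and had 19 pooled candidates, and its strongest region was not among the 766 thresholded on ce10. Its best ranks were 773 in replicate 1 and 800 in replicate 3, both at other places than the pooled summit. Those of nuc-1 were 818 in replicate 1 and 4661 in replicate 3. The nuclear receptor gene nhr-31, a regulator of pump genes in the excretory cell, had pooled rank 8361 but rank 287 in replicate 3. Among the rest, scav-3 and ctns-1 had pooled ranks 2261 and 2615, cup-5 had 10986, lmp-2 had 16256, and laat-1 had no pooled candidate. The lysosomal membrane gene lmp-1 had pooled rank 3153. Its best library ranks were 11664 in replicate 1 and 15140 in replicate 3, both at other places than the pooled summit. The cathepsin genes cpl-1, asp-1 and asp-3 had pooled ranks 6112, 8484 and 14157. The median over the 11 genes with a candidate was 6112, against 9497 for all protein-coding genes with one.

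Likeness of pattern was measured in the percentage ranks of a gene's strongest region in the pooled list, replicate 1 and replicate 3. Distances were taken to the medians of the 8 genes and not to any single one. A single gene can differ from the medians, as vha-12 did (2.99%, 10.4% and 0.443%). The medians of the 8 genes were 2.38%, 3.52% and 9.03% of the list. Among the 8759 other protein-coding genes with a candidate in all 3 lists, the nearest were endu-2 and kqt-2, which share their values (2.70%, 3.27% and 9.36%), mcd-1 (2.44%, 3.14% and 9.53%), and sftb-1 and R10E4.1, which also share theirs (2.25%, 3.01% and 9.47%).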

How the data were processed

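The deposited lists, made by the authors, give 30000 candidate regions per library and for the pool. Each region has a summit, a signal (an enrichment value) and a −log10 q-value set by the authors. Per the deposited file listings, each list derives from the alignments and 1 control file, on builds ce11 and ce10. Which aligner, peak caller and settings were used is not given in the sources used here. The lists hold no read counts, so depth and counting error are unknown.

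Summits (1-based, ce11) were assigned to all 19973 protein-coding genes of Ensembl release 115 (WBcel235, the same sequence as ce11) in Python 3.11.15 with numpy 2.4.6 and pandas 2.3.3. The assignment was tested on summits placed at known distances. Ranks are by signal within a list, and library summits were matched to pooled ones within 200 bp. Sequence came from the RefSeq WBcel235 genome. Figures used matplotlib 3.10.9. No test was made: there is 1 group of 2 libraries, and the 8 genes, gene lists and motifs were chosen with earlier results of these data known. Named genes are the pump genes, the lysosome list, the neighbours of the summits and the 5 genes nearest in rank to the medians of the 8. The genes cept-2 and nspg-11, whose bodies hold a summit, were named after the values were seen. Alternatives changed the distance limit, the gene body, the nearest-gene rule, the threshold, the library, the overlap rule, the annotation and the build.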

Additional observations from a re-analysis of the deposited data

How the results depend on the processing

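All 8 genes kept a pooled candidate with a limit of 500 bp, without the gene body, with the nearest 5′ end only, in either library alone (8 in both) and with RefSeq genes; with a limit of 250 bp 7 did, vha-1 being lost. The 4 genes with a thresholded region stayed 4 without the gene body, with any overlap of 1 bp, with RefSeq genes and on ce10 (the last 2 chosen after seeing the data), but were 3 with a limit of 500 bp and 1 (vha-15) with 250 bp. They were 3 when each summit went to the nearest gene only, 1 (vha-8) in the stronger 428 regions and 6 in the strongest 1714. With 1 library left out the count ran from 2 to 4: replicate 3 alone gave vha-8 and vha-12, and replicate 1 alone gave the same 4 genes as the pooled list. The 1 gene within the top ranks of both libraries, vha-8, was 1 with a limit of 500 bp or without the gene body, and the count was 0 with a limit of 250 bp and 0 with the nearest gene only. On ce10 the strongest regions of vha-9, vha-17 and hlh-30, at ranks 830, 793 and 789, were below that build's 766 thresholded regions, and nuc-1 was the last of them at rank 766. No paired analysis was possible because there is 1 group and no result comes from a test. With depth unknown, the precision of a rank is unknown too.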
